A study of Xenopus laevis with 12 samples.

Results

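The genes described here are the molecular chaperones of Xenopus laevis and their partners, measured on Affymetrix expression arrays: the heat shock protein genes, the DnaJ co-chaperone genes, the subunits of the cytosolic chaperonin, prefoldin subunits and BAG family co-chaperones. They were chosen by symbol alone, as probe sets annotated to 1 gene symbol that starts with hsp followed by a letter from a to e or a digit, with dnaja, dnajb or dnajc, with cct and a digit, or with tcp1, pfdn or bag and a digit. Where a symbol had several probe sets, the probe set with the highest mean over all arrays was used. This gave 83 genes of the 11303 gene symbols on the array: 27 heat shock genes, 36 DnaJ genes, 13 chaperonin genes, 3 prefoldin genes, 3 BAG genes and tcp11l1.L, which matches only by its first letters and is not a chaperone by name. The suffixes .L and .S mark the copies of a gene on the long and short homeologous chromosomes of this allotetraploid frog, and 18 pairs have both copies among the 83 genes.

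Chaperones bind unfolded or partly folded proteins and prevent their aggregation. Hsp70 proteins do so in cycles of ATP hydrolysis that DnaJ proteins (Hsp40) start and nucleotide exchange factors end, with separate sets of these proteins in the cytosol, the endoplasmic reticulum (ER) and mitochondria. The chaperonin CCT, also called TRiC, is a ring of different subunits that folds actin and tubulin, which prefoldin delivers to it. Some DnaJ and small heat shock genes encode proteins with other known tasks, in the axoneme of motile cilia, at the ribosome or on splicing factors.

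Embryos were injected at the 2-cell stage in the animal pole with mRNA, animal caps (the prospective ectoderm above the blastocoel) were cut out at stage 9, and the explants were grown in culture until stage 15, when total RNA was taken. The 4 groups were wnt3a+chordin+kctd15 (all 3 mRNAs), wnt3a+chordin (both of those mRNAs), kctd15 (that mRNA alone) and lacZ (mRNA of a bacterial enzyme, as the injected control), each with 3 arrays numbered by replicate in the sample titles. Chordin binds BMPs, and with Wnt3a it turns animal cap ectoderm toward neural plate border and neural crest, while Kctd15 is known as an inhibitor of neural crest formation. Every explant in all 4 groups had thus been injected, dissected and collected at the same stages, and no uninjected explant was used here. The number of injected mRNAs differed between groups, and the mRNA doses were not given in the sources used here. Whether the groups received equal total mRNA is therefore unknown. An array stands for the pooled RNA of many cells, so for every value below fewer cells of a type and less RNA per cell cannot be told apart.

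Values are log2 signals as deposited. A difference is the log2 fold change between group means from limma, with its standard error (SE) and n = 3 arrays per group; a gene was called where its p-value, adjusted by the Benjamini-Hochberg method over 32475 probe sets, was under 0.05. The labels do not say that the replicates of a group came from separate batches of embryos, so p-values measure the spread between these samples, which may be technical. Arrays with the same replicate number deviated together in all 18 pairs of arrays (correlations of deviations from the group means 0.18 to 0.71). For this reason the fit with replicate number as a block is given beside the other where it changed a call or a count of calls. Correlations between numbers were -0.51 to 0.10. Deviations cancel within a group, so these are negative on average wherever the same-number values are positive.

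The arrays had medians between 7.17 and 7.28 and correlated at 0.971 to 0.986 within groups. The probe set of wnt3a.S followed the labels, while that of kctd15.L was lower in the arrays labelled with kctd15: it measured 4.17, 3.77 and 6.43 in the kctd15 arrays and 11.22, 10.96 and 10.70 in the lacZ arrays, and 3.52, 6.77 and 5.18 in the wnt3a+chordin+kctd15 arrays and 10.99, 10.22 and 10.78 in the wnt3a+chordin arrays. The probe set of chrd.1.S, for the third injected mRNA, measured 8.84, 11.14 and 8.87 in the wnt3a+chordin+kctd15 arrays, 8.50, 10.20 and 10.38 in the wnt3a+chordin arrays, 5.23, 4.48 and 9.08 in the kctd15 arrays and 4.08, 3.79 and 9.37 in the lacZ arrays. Replicate 3 of kctd15 and of lacZ lay inside the range of the arrays labelled with chordin, so the groups overlapped, and the gene was not called (adjusted p = 0.0652 against lacZ and 0.112 against kctd15, limma). Means over 13 notochord and axial markers were 5.06, 7.53 and 5.78 in wnt3a+chordin+kctd15 and 5.13, 6.90 and 6.99 in wnt3a+chordin arrays. They were 4.48, 4.29 and 5.94 in kctd15 and 4.66, 4.88 and 6.92 in lacZ arrays. Whether the chrd.1.S signal is linked to these markers was not tested. Which parts of the transcripts the probe sets of wnt3a.S, kctd15.L and chrd.1.S cover was not examined here, and every direction given for kctd15 rests on the labels. Array means over 15 neural crest markers were 8.15 to 9.75 in wnt3a+chordin+kctd15, 10.29 to 11.18 in wnt3a+chordin, 6.44 to 6.64 in kctd15 and 6.97 to 7.75 in lacZ. Of these markers, 4 were called lower and 0 higher in wnt3a+chordin+kctd15 against wnt3a+chordin by limma (0.549% of all symbols lower). What this means for the labels was not tested. In the lacZ arrays, ciliated cell and epidermal markers averaged 10.83 to 11.11 and 12.41 to 12.51, so markers of the labelled ectoderm were present. Of 21 markers of multiciliated cells, 20 were called lower by limma in wnt3a+chordin than in lacZ arrays (20 with the block). In wnt3a+chordin+kctd15 against kctd15 arrays, 19 were called lower (20 with the block). Of all symbols, 19.0% and 20.5% were called lower in these comparisons (23.6% and 26.8% with the block). Among 15 neural markers, 13 and 12 were called higher (12 and 12 with the block), and 0 and 1 were called lower. Of all symbols, 25.5% and 24.9% were called higher (33.8% and 31.9% with the block). Over 30 muscle markers, array means were 4.91, 7.08 and 5.59 in wnt3a+chordin+kctd15, 4.82, 6.35 and 6.19 in wnt3a+chordin, 5.09, 4.79 and 5.45 in kctd15 and 4.88, 4.62 and 6.61 in lacZ. Replicate 2 of wnt3a+chordin+kctd15 and replicate 3 of lacZ were thus high in their groups, and replicate 1 of wnt3a+chordin was low in its own.

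Injection of wnt3a and chordin was accompanied by changes in both directions among the chaperone genes. In wnt3a+chordin against lacZ arrays, 14 of the 83 genes rose and 9 fell, where 25.5% of all 11303 symbols were called higher and 19.0% lower. The share of chaperone genes called, 27.7%, was below the 44.5% of all symbols, and the median difference was 0.12, against 0.10 for all symbols. In wnt3a+chordin+kctd15 against kctd15 arrays, 15 rose and 12 fell, where the shares of all symbols were 24.9% and 20.5%. There 32.5% of the chaperone genes were called against 45.3% of all symbols, with medians of 0.05 and 0.03. Of the 83 genes, 12 in the first of these comparisons and 7 in the other were called and at least 2-fold. Of all symbols, 21.1% and 22.1% were. With the replicate block, 27 genes rose and 10 fell against lacZ (44.6%, background 57.4%), and 27 rose and 19 fell against kctd15 (55.4%, background 58.7%). All calls of the fit without the block were also called with it. With lacZ replicate 3 and wnt3a+chordin+kctd15 replicate 2 both left out, 16 rose and 8 fell against lacZ, and 11 rose and 6 fell against kctd15. The share of all symbols called was not computed for that fit.

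The groups did not overlap for 40 of the 83 genes between wnt3a+chordin and lacZ, a share below the 55.6% of all symbols, with 27 genes above and 13 below. Between wnt3a+chordin+kctd15 and kctd15, 37 genes did not overlap (background 53.1%), of which 21 lay above and 16 below. These 2 comparisons have no array in common, although the same fit and replicate numbers serve both. Over the 83 genes their fold changes correlated at a Pearson r of 0.81 (0.77 without dnajb13.S, the most changed gene) and a Spearman rho of 0.82, and 65 genes had the same sign. No gene was called in opposite directions. Of the genes that rose, 12 did so in both comparisons (85.7% of the 14 and 80.0% of the 15), and of those that fell, 7 did (77.8% of the 9 and 58.3% of the 12). The correlation, signs and overlap were not computed over all symbols. They therefore do not show whether chaperone genes differ from other genes in this.

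**Figure D1:**
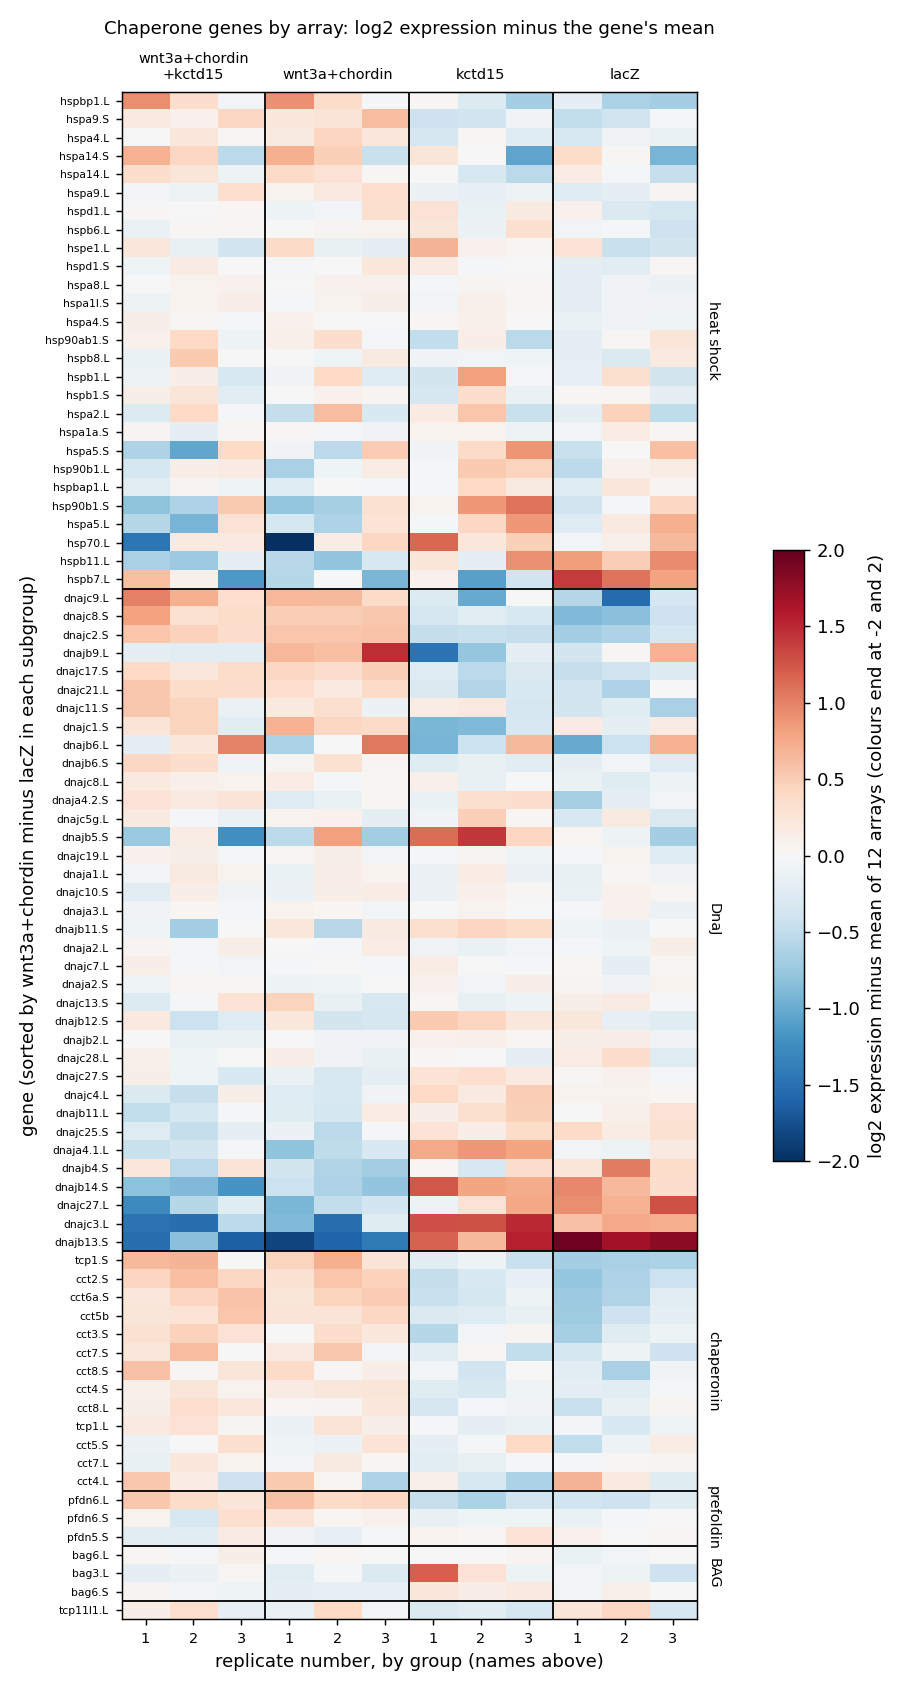
Log2 signal of each of the 83 genes (rows, sorted within subgroups by the wnt3a+chordin minus lacZ difference) in each of the 12 arrays (columns), minus the gene's mean over all arrays; colours end at -2 and 2. The strongest contrasts lie among DnaJ genes, and rows such as dnajb13.S and dnajc3.L separate the columns with wnt3a and chordin from those without.

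**Figure D2:**
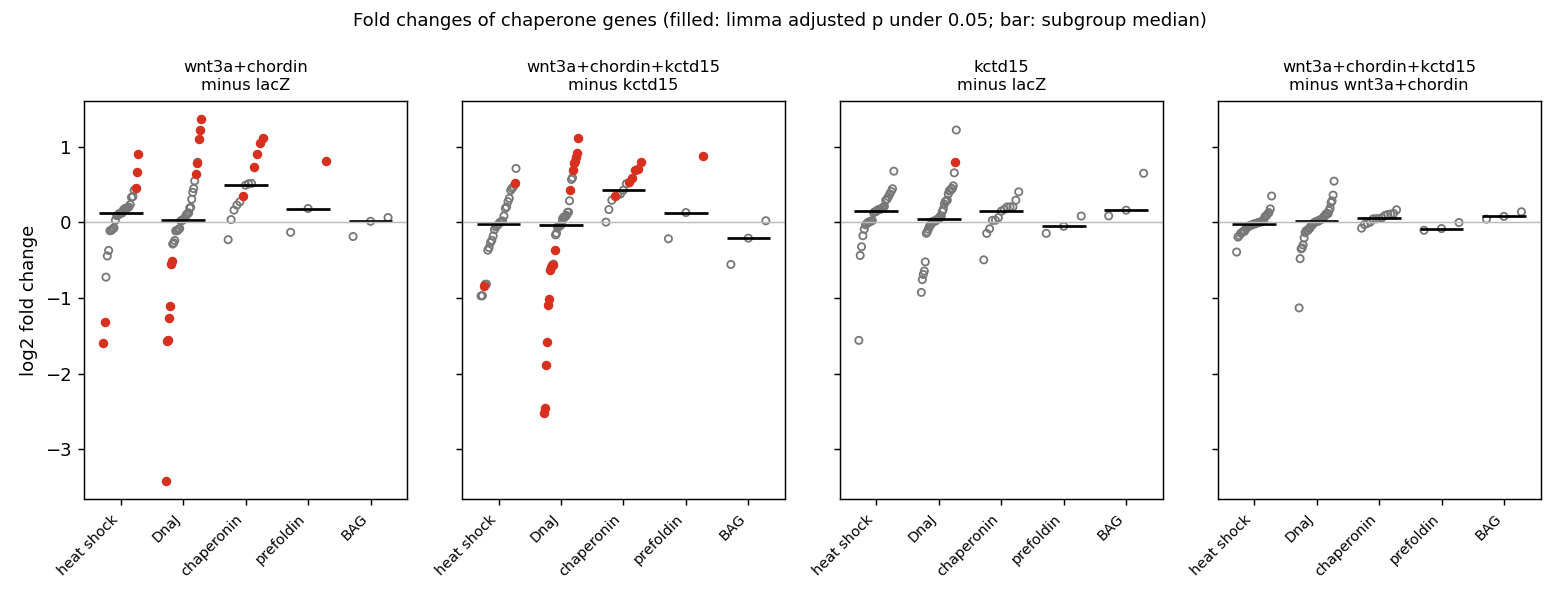
Log2 fold change of each gene (points) by subgroup for the comparisons between groups, with the subgroup median marked; tcp11l1.L is left out. Chaperonin genes lie mostly above 0 in the 2 comparisons for wnt3a and chordin, with medians of 0.49 and 0.43, while DnaJ genes spread widest, from -3.43 to 1.37 against lacZ.

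Calls were also counted in the 3 large subgroups. Of the 13 chaperonin genes, 5 rose and 0 fell against lacZ by limma (8 with an unadjusted p under 0.05; 9 and 0 with the block), and 6 rose and 0 fell against kctd15 (9 with an unadjusted p under 0.05; 10 and 0 with the block). Of all 11303 symbols, 5806 and 5895 had an unadjusted p under 0.05 by limma in these comparisons. The medians of the chaperonin genes were 0.49 and 0.43, and 12 and 13 of the 13 had a positive fold change. Among all 11303 symbols, 6613 and 5865 had a positive fold change. Of the 36 DnaJ genes, 5 rose and 7 fell against lacZ (10 and 8 with the block), and 7 rose and 11 fell against kctd15 (9 and 12 with the block), with medians of 0.04 and -0.03. Of the 27 heat shock genes, 3 rose and 2 fell against lacZ (7 and 2 with the block), and 1 rose and 1 fell against kctd15 (6 and 7 with the block), with medians of 0.12 and -0.02. The share of chaperonin genes called was 38.5% and 46.2% (69.2% and 76.9% with the block), where 44.5% and 45.3% of all symbols were called (57.4% and 58.7% with the block). These chaperonin calls were all higher, and 25.5% and 24.9% of all symbols were called higher (33.8% and 31.9% with the block). The share of DnaJ genes was 33.3% and 50.0% (50.0% and 58.3% with the block), and that of heat shock genes was 18.5% and 7.41% (33.3% and 48.1% with the block). No test between subgroups was made.

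Among the chaperonin subunits, all of which sit in the CCT ring, the largest differences were those of cct2.S, cct6a.S, tcp1.S and cct5b. The cct2.S probe set (Xl2.7645.1.S1_a_at) measured 11.58, 11.76 and 11.57 in the wnt3a+chordin+kctd15 arrays, 11.45, 11.71 and 11.61 in the wnt3a+chordin arrays, 10.68, 10.85 and 10.99 in the kctd15 arrays and 10.37, 10.54 and 10.72 in the lacZ arrays. Every array with wnt3a and chordin was above every array without them. The gene was higher against lacZ (1.05 ± 0.13, adjusted p = 0.000104, limma) and against kctd15 (0.80 ± 0.13, adjusted p = 0.000583). Its 3 probe sets were all called against lacZ and 2 of them against kctd15.

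The alpha subunit gene tcp1.S (Xl2.516.1.S1_at) measured 12.10, 12.13 and 11.45 in the wnt3a+chordin+kctd15 arrays, 11.89, 12.17 and 11.71 in the wnt3a+chordin arrays, 11.25, 11.35 and 11.01 in the kctd15 arrays and 10.77, 10.80 and 10.82 in the lacZ arrays. Both wnt3a+chordin groups lay above their counterparts without overlap, and replicate 3 of wnt3a+chordin+kctd15 was the lowest of the arrays with wnt3a and chordin. The difference was 1.12 ± 0.19, adjusted p = 0.000774 against lacZ and 0.69 ± 0.19, adjusted p = 0.0130 against kctd15 by limma; the call against kctd15 was lost without 3 of the 12 arrays in turn. The other copy, tcp1.L, differed by 0.23 (limma adjusted p = 0.172) and 0.29 (adjusted p = 0.0835) and was called in neither comparison.

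The zeta subunit gene cct6a.S (Xl2.1519.1.S1_a_at) measured 12.60, 12.82 and 12.96 in the wnt3a+chordin+kctd15 arrays, 12.63, 12.84 and 12.90 in the wnt3a+chordin arrays, 11.93, 12.03 and 12.28 in the kctd15 arrays and 11.66, 11.79 and 12.18 in the lacZ arrays. Within each group replicate 3 was the highest, and the groups with and without wnt3a and chordin did not overlap. By limma the gene rose by 0.91 ± 0.16, adjusted p = 0.00111 against lacZ and by 0.71 ± 0.16, adjusted p = 0.00488 against kctd15. The gene annotated as cct5b (Xl2.55302.1.S1_at) measured 12.87, 12.90 and 13.19 in the wnt3a+chordin+kctd15 arrays, 12.88, 12.88 and 13.04 in the wnt3a+chordin arrays, 12.34, 12.37 and 12.49 in the kctd15 arrays and 11.92, 12.22 and 12.45 in the lacZ arrays. All arrays with wnt3a and chordin lay above all others, with differences of 0.74 ± 0.14, adjusted p = 0.00201 against lacZ and 0.59 ± 0.14, adjusted p = 0.00753 against kctd15. In contrast cct5.S, for which 5 probe sets were present, differed by 0.16 and 0.00, and none of the 5 was called in either comparison.

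Both cct4 copies encode the delta subunit. Their fold changes had opposite signs against lacZ, where only cct4.S was called, and were close to each other against kctd15. For cct4.S (12.21, 12.35 and 12.19 in the wnt3a+chordin+kctd15 arrays, 12.27, 12.35 and 12.36 in the wnt3a+chordin arrays, 11.88, 11.79 and 12.02 in the kctd15 arrays and 11.94, 11.91 and 12.10 in the lacZ arrays) the groups did not overlap, and it rose by 0.34 ± 0.10, adjusted p = 0.0198 against lacZ and by 0.35 ± 0.10, adjusted p = 0.0175 against kctd15, calls that were lost without 4 of the 12 arrays and 3 of the 12 arrays. The cct4.L probe set measured 11.24, 10.85 and 10.29 in the wnt3a+chordin+kctd15 arrays, 11.23, 10.73 and 10.08 in the wnt3a+chordin arrays, 10.80, 10.39 and 10.07 in the kctd15 arrays and 11.38, 10.90 and 10.45 in the lacZ arrays. Replicate 1 was the highest and replicate 3 the lowest array in every group, and the lacZ array of each number was above the kctd15 array of that number. It differed by -0.23 against lacZ (adjusted p = 0.658 in limma; 0.0621 with the block) and by 0.38 against kctd15 (adjusted p = 0.436; 0.00686 with the block).

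The remaining chaperonin genes had smaller differences relative to their spread. The gamma subunit gene cct3.S measured 11.93, 12.08 and 11.91 in the wnt3a+chordin+kctd15 arrays, 11.61, 11.97 and 11.83 in the wnt3a+chordin arrays, 11.05, 11.57 and 11.68 in the kctd15 arrays and 10.95, 11.38 and 11.52 in the lacZ arrays. The wnt3a+chordin+kctd15 arrays lay above the kctd15 arrays, and the wnt3a+chordin arrays above the lacZ arrays. It was called against kctd15 (0.54 ± 0.19, adjusted p = 0.0456, limma; lost without 9 of the 12 arrays), and against lacZ only with the block (0.52 ± 0.19, adjusted p = 0.0531; 0.00707 with the block). The cct7.S, cct8.L and cct8.S genes were called in both comparisons only with the block, with differences of 0.51, 0.27 and 0.49 against lacZ and 0.51, 0.36 and 0.43 against kctd15 (limma adjusted p 0.0420 or less with it, 0.0620 or more without). The cct7.L gene was called in neither fit, with differences of 0.04 and 0.17.

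Prefoldin hands new actin and tubulin chains to the chaperonin. Its subunit gene pfdn6.L (Xl2.42187.1.S1_at) measured 11.29, 11.12 and 11.00 in the wnt3a+chordin+kctd15 arrays, 11.34, 11.13 and 11.17 in the wnt3a+chordin arrays, 10.30, 10.12 and 10.35 in the kctd15 arrays and 10.36, 10.34 and 10.51 in the lacZ arrays. The groups with wnt3a and chordin lay above those without by a margin larger than the range of any group, and the gene rose by 0.81 ± 0.12, adjusted p = 0.000262 against lacZ and by 0.88 ± 0.12, adjusted p = 0.000162 against kctd15 in limma. Its copy pfdn6.S differed by 0.18 and 0.13, and pfdn5.S by -0.13 and -0.22, with no call in either fit.

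**Figure D3:**
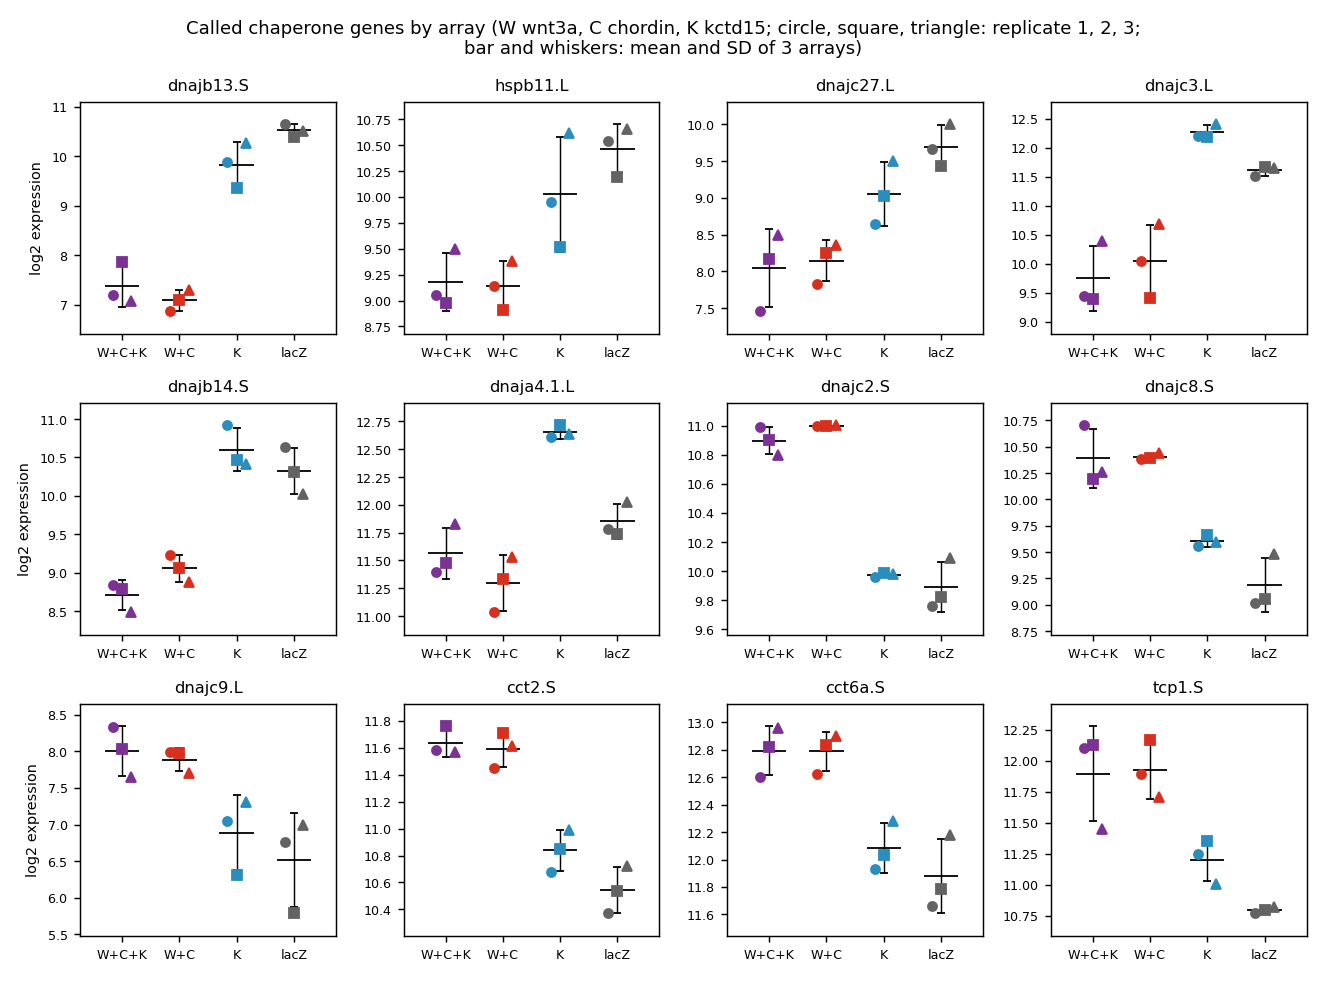
Log2 signal of 12 chaperone genes in each array, with the mean and SD of the 3 arrays of a group. The genes dnajb13.S, hspb11.L, dnajc27.L, dnajc3.L and dnajb14.S are lower in both groups with wnt3a and chordin, and dnajc2.S, dnajc8.S, dnajc9.L, cct2.S, cct6a.S and tcp1.S are higher in both.

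The DnaJ genes held the widest differences, and those called among the genes whose proteins are known from the nucleus or the ribosome all rose. Of the 6 genes of this kind (dnajc2.S, dnajc8.L, dnajc8.S, dnajc9.L, dnajc17.S and dnajc21.L), 5 rose and 0 fell in each comparison, with medians of 0.95 against lacZ and 0.80 against kctd15; with the block 6 rose against lacZ and 5 against kctd15. That is a share of 83.3% in each comparison, where 25.5% and 24.9% of all symbols were called higher. With the block the shares were 100% and 83.3%, where 33.8% and 31.9% of all symbols were called higher. The list was drawn up with earlier results of these data known, so its count is a description. Dnajc2, called MPP11 in mammals, sits on ribosomes with an Hsp70 partner. Its gene dnajc2.S (Xl2.31013.1.S1_at) measured 10.99, 10.90 and 10.80 in the wnt3a+chordin+kctd15 arrays, 11.00, 11.00 and 11.00 in the wnt3a+chordin arrays, 9.96, 9.99 and 9.98 in the kctd15 arrays and 9.76, 9.82 and 10.09 in the lacZ arrays. The arrays with wnt3a and chordin were all at or above 10.80 and the others at or below 10.09, and the difference was 1.11 ± 0.11, adjusted p = 2e-05 against lacZ and 0.92 ± 0.11, adjusted p = 6.72e-05 against kctd15. All 4 of its probe sets were called higher against lacZ and 3 of 4 against kctd15.

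Dnajc8 is a spliceosome-associated protein, and dnajc8.S (Xl2.24686.1.S1_at) measured 10.70, 10.20 and 10.26 in the wnt3a+chordin+kctd15 arrays, 10.39, 10.39 and 10.44 in the wnt3a+chordin arrays, 9.56, 9.66 and 9.60 in the kctd15 arrays and 9.02, 9.05 and 9.48 in the lacZ arrays. The kctd15 arrays lay between the lacZ arrays and the arrays with wnt3a and chordin without overlapping either. The limma difference was 1.22 ± 0.16, adjusted p = 0.000138 against lacZ and 0.78 ± 0.16, adjusted p = 0.00233 against kctd15. Its copy dnajc8.L differed by 0.20 ± 0.10, adjusted p = 0.147 against lacZ (0.0463 with the block) and by 0.14 against kctd15, where neither fit called it.

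Dnajc9 is a histone chaperone. The dnajc9.L probe set (Xl2.44964.1.S1_at) measured 8.33, 8.03 and 7.66 in the wnt3a+chordin+kctd15 arrays, 7.99, 7.97 and 7.71 in the wnt3a+chordin arrays, 7.05, 6.31 and 7.31 in the kctd15 arrays and 6.76, 5.79 and 6.99 in the lacZ arrays. Replicate 2 was the lowest array of both the kctd15 and the lacZ group, and the groups with and without wnt3a and chordin did not overlap. The difference was 1.37 ± 0.33, adjusted p = 0.00688 against lacZ and 1.11 ± 0.33, adjusted p = 0.0199 against kctd15 in limma; the call against kctd15 was lost without 3 of the 12 arrays. A further 2 genes of this list rose in both comparisons. They were dnajc17.S, whose protein associates with splicing factors (0.79 and 0.69, adjusted p = 0.000204 and 0.000468), and dnajc21.L, whose protein acts in the maturation of the large ribosomal subunit (0.64 and 0.81, adjusted p = 0.00719 and 0.00179).

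The gene that fell most against lacZ was dnajb13.S, whose protein is part of the radial spokes in the axoneme of motile cilia and sperm tails in mammals. Its probe set (Xl2.47967.1.S1_at) measured 7.20, 7.86 and 7.08 in the wnt3a+chordin+kctd15 arrays, 6.87, 7.11 and 7.30 in the wnt3a+chordin arrays, 9.88, 9.35 and 10.26 in the kctd15 arrays and 10.65, 10.39 and 10.52 in the lacZ arrays. The kctd15 arrays lay below the lacZ arrays, and all arrays with wnt3a and chordin lay far below both. The difference was -3.43 ± 0.25, adjusted p = 4.75e-06 against lacZ and -2.45 ± 0.25, adjusted p = 3.6e-05 against kctd15, while kctd15 against lacZ, -0.69 ± 0.25, adjusted p = 0.150, was not called.

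Despite its symbol, hspb11 encodes a subunit of intraflagellar transport (IFT25), the traffic that builds cilia. The hspb11.L probe set (Xl2.48920.1.S1_at) measured 9.06, 8.98 and 9.50 in the wnt3a+chordin+kctd15 arrays, 9.15, 8.91 and 9.38 in the wnt3a+chordin arrays, 9.95, 9.51 and 10.61 in the kctd15 arrays and 10.54, 10.19 and 10.65 in the lacZ arrays. Replicate 2 was the lowest array of the kctd15 and lacZ groups, and no array with wnt3a and chordin reached it. The gene fell by 1.32 ± 0.27 against lacZ (limma adjusted p = 0.00237) and by 0.85 ± 0.27 against kctd15 (adjusted p = 0.0250; lost without 4 of the 12 arrays). Means over the 21 multiciliated cell markers moved with both genes: 6.46 to 7.98 in the wnt3a+chordin+kctd15 arrays, 6.30 to 6.33 in the wnt3a+chordin arrays, 9.98 to 10.54 in the kctd15 arrays and 10.83 to 11.11 in the lacZ arrays. The part of these cells in the 2 results was not tested.

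Dnajc27 joins a J domain to a Rab-like GTPase. The dnajc27.L probe set (Xl2.21642.1.S1_a_at) measured 7.46, 8.17 and 8.50 in the wnt3a+chordin+kctd15 arrays, 7.83, 8.25 and 8.36 in the wnt3a+chordin arrays, 8.64, 9.02 and 9.51 in the kctd15 arrays and 9.66, 9.43 and 10.01 in the lacZ arrays. The lacZ arrays were highest, the kctd15 arrays lay below them with overlap between kctd15 replicate 3 and the lacZ range, and the arrays with wnt3a and chordin were lowest. It differed by -1.55 ± 0.30, adjusted p = 0.00168 against lacZ and -1.01 ± 0.30, adjusted p = 0.0178 against kctd15 (lost without 2 of the 12 arrays), and kctd15 against lacZ, -0.64, was called only with the block (0.0337, against 0.267 without it). Its copy dnajc27.S differed by -0.24 against lacZ, not called by limma (adjusted p = 0.141), and by -0.36 ± 0.12, adjusted p = 0.0307 against kctd15 (lost without 4 of the 12 arrays).

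Genes of the ER branch include hspa5 (BiP) and hsp90b1 (GRP94), the main Hsp70 and Hsp90 of that compartment. The others encode DnaJ proteins of the ER lumen or the ER membrane, not all of them partners of BiP. Of 12 such genes, 0 rose and 2 fell against lacZ by limma (3 with an unadjusted p under 0.05; 1 and 3 with the block), and 1 rose and 4 fell against kctd15 (1 and 9 with the block), with medians of -0.10 and -0.61. Against lacZ, 5806 of all 11303 symbols had an unadjusted p under 0.05 by limma. The shares of the ER genes called, 16.7% and 41.7%, were below the 44.5% and 45.3% of all symbols. With the block they were 33.3% and 83.3%, against 57.4% and 58.7%. The mean level of the 12 genes was 10.09 to 10.49 in the wnt3a+chordin+kctd15 arrays, 10.24 to 10.77 in the wnt3a+chordin arrays, 10.66 to 11.09 in the kctd15 arrays and 10.56 to 10.91 in the lacZ arrays. The range of wnt3a+chordin+kctd15 was below that of kctd15, while wnt3a+chordin overlapped lacZ.

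The largest of these differences belonged to dnajc3.L, whose protein (p58IPK in mammals) works in the ER lumen with BiP. Its probe set (Xl2.13598.1.S1_at) measured 9.44, 9.40 and 10.40 in the wnt3a+chordin+kctd15 arrays, 10.04, 9.41 and 10.68 in the wnt3a+chordin arrays, 12.21, 12.18 and 12.41 in the kctd15 arrays and 11.51, 11.67 and 11.65 in the lacZ arrays. The kctd15 arrays were the highest, above the lacZ arrays without overlap, and replicate 3 was the highest of both groups with wnt3a and chordin. The gene differed by -1.57 ± 0.32, adjusted p = 0.00253 against lacZ and by -2.52 ± 0.32, adjusted p = 0.000125 against kctd15. Kctd15 against lacZ, 0.66 ± 0.32, adjusted p = 0.298, was not called by limma.

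Dnajb14 is a J protein of the ER membrane. Its gene dnajb14.S (Xl2.23267.1.S1_at) measured 8.85, 8.79 and 8.49 in the wnt3a+chordin+kctd15 arrays, 9.24, 9.06 and 8.88 in the wnt3a+chordin arrays, 10.92, 10.47 and 10.41 in the kctd15 arrays and 10.63, 10.31 and 10.02 in the lacZ arrays. The wnt3a+chordin+kctd15 arrays lay below the wnt3a+chordin arrays, and both lay below every array without these mRNAs. It fell by 1.27 ± 0.19 against lacZ (limma adjusted p = 0.000403) and by 1.89 ± 0.19 against kctd15 (adjusted p = 3.27e-05). The related dnajb12.S was called against kctd15 only with the block (-0.55 ± 0.21, adjusted p = 0.0569; 0.00245 with the block).

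Both copies of dnajb11, an abundant ER lumen J protein (ERdj3), fell against kctd15. The dnajb11.L probe set measured 10.71, 10.86 and 11.20 in the wnt3a+chordin+kctd15 arrays, 10.96, 10.86 and 11.35 in the wnt3a+chordin arrays, 11.34, 11.53 and 11.69 in the kctd15 arrays and 11.22, 11.31 and 11.50 in the lacZ arrays, and dnajb11.S measured 10.61, 10.01 and 10.71 in the wnt3a+chordin+kctd15 arrays and 11.01, 11.13 and 11.06 in the kctd15 arrays. For both copies the wnt3a+chordin+kctd15 arrays lay below the kctd15 arrays. The differences against kctd15 were -0.60 ± 0.17, adjusted p = 0.0167 for dnajb11.L and -0.62 ± 0.22, adjusted p = 0.0447 for dnajb11.S, calls lost without 3 of the 12 arrays and 8 of the 12 arrays. Against lacZ, dnajb11.L was called only with the block (-0.29, adjusted p = 0.219; 0.0227 with the block), and dnajb11.S differed by 0.03.

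BiP was measured on both homeologs, and its call depended on the block. The hspa5.L probe set measured 11.40, 11.05 and 12.27 in the wnt3a+chordin+kctd15 arrays, 11.63, 11.36 and 12.25 in the wnt3a+chordin arrays, 11.95, 12.38 and 12.84 in the kctd15 arrays and 11.72, 12.16 and 12.69 in the lacZ arrays. Replicate 3 was the highest array in each group, and groups overlapped when replicates were not matched. Within replicate numbers, wnt3a+chordin+kctd15 minus kctd15 was -0.55, -1.33 and -0.57 for hspa5.L and -0.55, -1.41 and -0.49 for hspa5.S. The limma difference was -0.82 ± 0.37, adjusted p = 0.107 for hspa5.L and -0.82 ± 0.42, adjusted p = 0.145 for hspa5.S, with 0.00369 and 0.00862 under the block. Against lacZ they differed by -0.44 and -0.09, not called in either fit.

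The hsp90b1.S probe set measured 10.67, 10.86 and 12.00 in the wnt3a+chordin+kctd15 arrays, 10.70, 10.81 and 11.78 in the wnt3a+chordin arrays, 11.55, 12.34 and 12.55 in the kctd15 arrays and 11.08, 11.43 and 11.89 in the lacZ arrays. Here too replicate 3 was highest in each group. Wnt3a+chordin+kctd15 minus kctd15 was -0.88, -1.49 and -0.55 within replicate numbers (-0.97 ± 0.42, adjusted p = 0.0880 by limma; 0.00139 with the block), and kctd15 minus lacZ was 0.47, 0.91 and 0.66 (0.68 ± 0.42, adjusted p = 0.442; 0.0327 with the block). The other copy, hsp90b1.L, differed in the same directions by -0.33 and 0.41, also called with the block alone (0.00956 and 0.0151, against 0.348 and 0.457 without it).

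Among the ER genes, dnajc1.S, which encodes a membrane J protein, and dnajb9.L (ERdj4) had positive differences. The dnajc1.S probe set measured 9.95, 10.14 and 9.47 in the wnt3a+chordin+kctd15 arrays, 10.39, 10.10 and 10.08 in the wnt3a+chordin arrays, 8.77, 8.81 and 9.38 in the kctd15 arrays and 9.86, 9.51 and 9.86 in the lacZ arrays. The kctd15 arrays were lowest, and wnt3a+chordin+kctd15 lay above them without overlap (0.87 ± 0.21, adjusted p = 0.00701, limma), whereas wnt3a+chordin against lacZ, 0.45 ± 0.21, adjusted p = 0.118, was not called. The dnajb9.L probe set measured 9.28, 9.26 and 9.25 in the wnt3a+chordin+kctd15 arrays, 10.15, 10.08 and 10.96 in the wnt3a+chordin arrays, 8.00, 8.70 and 9.30 in the kctd15 arrays and 9.11, 9.51 and 10.17 in the lacZ arrays. The wnt3a+chordin arrays had the highest mean, with replicate 3 above all other arrays and replicates 1 and 2 below lacZ replicate 3. The difference from lacZ was 0.80 ± 0.36, adjusted p = 0.101 in limma (0.0164 with the block). The remaining ER gene, dnajc10.S, was called in no comparison in either fit.

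**Figure D4:**
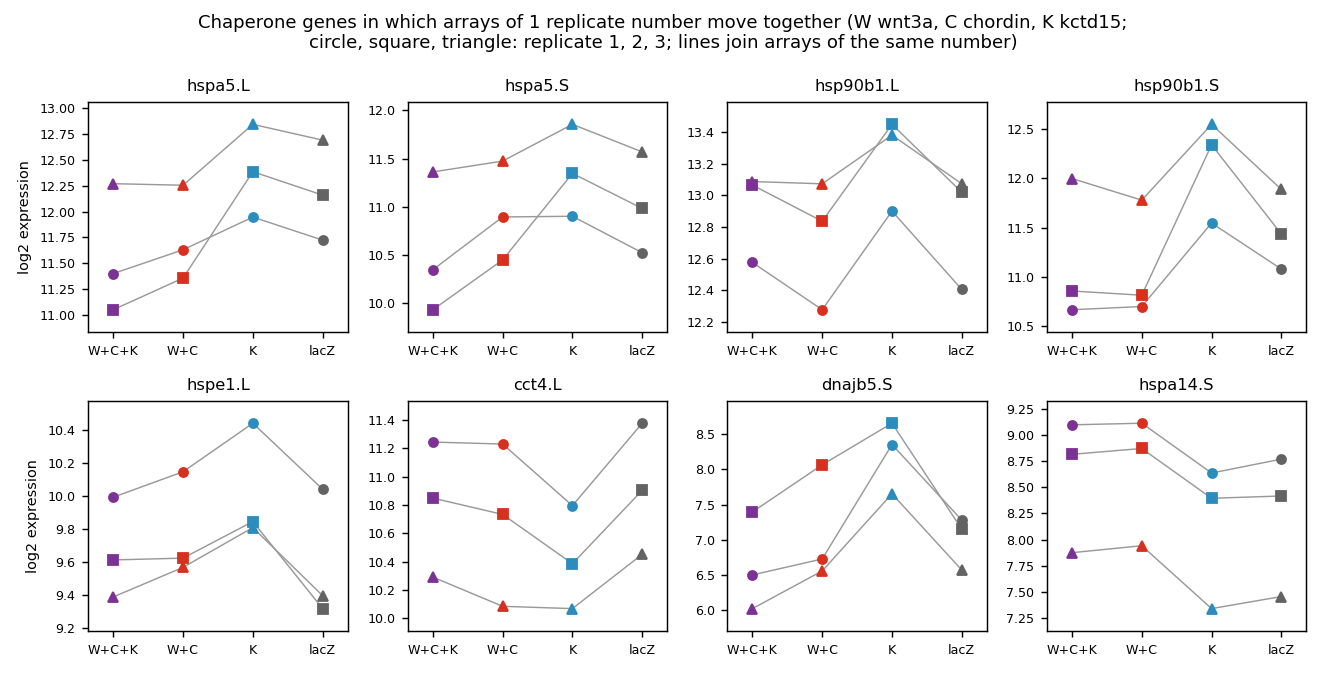
Log2 signal of 8 genes by group, with lines joining arrays that share a replicate number. For hspa5.L, hspa5.S, hsp90b1.L and hsp90b1.S the lines start at different heights, and each line is lower in wnt3a+chordin+kctd15 than in kctd15.

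Of the other DnaJ genes, dnaja4.1.L, a cytosolic Hsp70 partner, was the one chaperone gene called for kctd15 against lacZ in limma on the probe sets used. Its probe set (Xl2.11921.1.S1_at) measured 11.40, 11.47 and 11.83 in the wnt3a+chordin+kctd15 arrays, 11.03, 11.34 and 11.53 in the wnt3a+chordin arrays, 12.61, 12.72 and 12.64 in the kctd15 arrays and 11.78, 11.74 and 12.03 in the lacZ arrays. The kctd15 arrays lay above all other arrays, and both groups with wnt3a and chordin lay below lacZ, apart from wnt3a+chordin+kctd15 replicate 3, at 11.83, which was inside the lacZ range. It differed by 0.80 ± 0.16, adjusted p = 0.0119 for kctd15 against lacZ, by -0.55 ± 0.16, adjusted p = 0.0160 for wnt3a+chordin against lacZ, and by -1.09 ± 0.16, adjusted p = 0.000281 for wnt3a+chordin+kctd15 against kctd15. Without lacZ replicate 2 the kctd15 call was lost (0.75, adjusted p = 0.0521), and the call against lacZ for wnt3a+chordin was lost without 2 of the 12 arrays.

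Among the dnajb genes, dnajb4.S and dnajb5.S were each called in 1 comparison. The cytosolic J protein gene dnajb4.S measured 8.94, 8.18 and 8.97 in the wnt3a+chordin+kctd15 arrays, 8.34, 8.11 and 8.01 in the wnt3a+chordin arrays, 8.75, 8.40 and 9.06 in the kctd15 arrays and 8.96, 9.73 and 9.08 in the lacZ arrays. The lacZ arrays were above the wnt3a+chordin arrays (-1.11 ± 0.27, adjusted p = 0.00694, limma), while wnt3a+chordin+kctd15 and kctd15 overlapped (-0.04 ± 0.27, adjusted p = 0.930). The probe set of dnajb5.S, a related gene, measured 6.50, 7.39 and 6.02 in the wnt3a+chordin+kctd15 arrays, 6.72, 8.07 and 6.55 in the wnt3a+chordin arrays, 8.36, 8.66 and 7.65 in the kctd15 arrays and 7.28, 7.15 and 6.57 in the lacZ arrays. Replicate 2 was highest in both wnt3a+chordin groups, and wnt3a+chordin+kctd15 lay below kctd15 (-1.59 ± 0.46, adjusted p = 0.0169, limma; lost without 4 of the 12 arrays), whereas wnt3a+chordin and lacZ overlapped (0.12 ± 0.46, adjusted p = 0.873). The test of whether the 2 comparisons differ is the interaction given further on.

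The dnajb6 genes encode a J protein that restrains aggregation in mammalian cells. The dnajb6.S probe set measured 12.06, 12.00 and 11.57 in the wnt3a+chordin+kctd15 arrays and 11.41, 11.49 and 11.43 in the kctd15 arrays, a difference of 0.43 ± 0.14, adjusted p = 0.0284 by limma (lost without 5 of the 12 arrays), and wnt3a+chordin minus lacZ was 0.31 (adjusted p = 0.105; 0.0413 with the block). For dnajb6.L the differences, 0.40 and 0.57, were called only with the block (0.0122 and 0.00187, against 0.631 and 0.473 without it). Lower in the groups with wnt3a and chordin were dnajc25.S (-0.51, adjusted p = 0.0166, lost without 2 of the 12 arrays; -0.56, adjusted p = 0.0102) and, against kctd15, dnajc4.L (-0.57 ± 0.15, adjusted p = 0.0116).

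Of the cytosolic Hsp70 genes and their helpers, the exchange factor genes hspa4.L and hspbp1.L rose against lacZ. The constitutive Hsc70 gene hspa8.L ranged from 14.70 to 14.99 over the 12 arrays, and hspa1l.S from 14.66 to 14.97, near the top of the range of 2.38 to 15.58 of all probe sets. The hspa8.L difference against lacZ, 0.18 ± 0.09, adjusted p = 0.116, was called only with the block (0.0414). The Hsp110-family exchange factor gene hspa4.L measured 9.08, 9.31 and 9.11 in the wnt3a+chordin+kctd15 arrays, 9.26, 9.51 and 9.32 in the wnt3a+chordin arrays, 8.75, 9.10 and 8.83 in the kctd15 arrays and 8.77, 9.01 and 8.95 in the lacZ arrays. It rose by 0.46 ± 0.13, adjusted p = 0.0158 against lacZ in limma (lost without 2 of the 12 arrays) and differed by 0.28 against kctd15, called with the block alone (adjusted p = 0.116; 0.0113 with the block). The exchange factor gene hspbp1.L measured 10.80, 10.22 and 9.82 in the wnt3a+chordin+kctd15 arrays, 10.78, 10.24 and 9.83 in the wnt3a+chordin arrays, 9.90, 9.60 and 9.19 in the kctd15 arrays and 9.68, 9.24 and 9.20 in the lacZ arrays. Replicate 1 was highest in every group. It rose by 0.91 ± 0.30, adjusted p = 0.0330 against lacZ (lost without 4 of the 12 arrays) and differed by 0.72 against kctd15 (adjusted p = 0.0832; 0.000625 with the block).

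Hspa14 is an Hsp70 that joins Dnajc2 at the mammalian ribosome. Its copies hspa14.L and hspa14.S differed by 0.34 and 0.43 against lacZ and by 0.45 and 0.47 against kctd15. All 4 differences were called with the block (limma adjusted p at most 0.00724) and none without it (at least 0.0961). Within replicate numbers, hspa14.S differed by 0.34, 0.45 and 0.49 against lacZ and by 0.46, 0.42 and 0.53 against kctd15. The cytosolic Hsp90 gene hsp90ab1.S differed by 0.12 against lacZ and by 0.43 against kctd15 (adjusted p = 0.129 in limma, 0.0473 with the block). Of its 4 probe sets, 1 was called higher against kctd15 by limma without the block, and the differences of the 4 there were 0.22 to 0.47.

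In mitochondria, mortalin (Hspa9) is the Hsp70 that pulls proteins in and folds them. Of 8 genes for mitochondrial chaperones, hspa9.S was the one called, higher in both comparisons (12.5% of the list, where 25.5% and 24.9% of all symbols were called higher; 37.5% called in each with the block, where 57.4% and 58.7% of all symbols were). It measured 10.08, 9.97 and 10.29 in the wnt3a+chordin+kctd15 arrays, 10.09, 10.15 and 10.50 in the wnt3a+chordin arrays, 9.47, 9.50 and 9.82 in the kctd15 arrays and 9.39, 9.49 and 9.85 in the lacZ arrays. The arrays with wnt3a and chordin were all above those without, by 0.67 ± 0.17, adjusted p = 0.00797 against lacZ and 0.52 ± 0.17, adjusted p = 0.0286 against kctd15 in limma (lost without 4 of the 12 arrays against kctd15). With the block hspa9.L (0.33, 0.0158) and dnajc11.S, a gene of the inner membrane organising machinery (0.55, 0.000903), were also called against lacZ, and dnajc11.S was called against kctd15 as well (0.29, 0.0246). The other probe set of dnajc19.L, a gene of the protein import motor, was called higher in both comparisons by limma (0.57 ± 0.15, adjusted p = 0.0123 against lacZ and 0.61 ± 0.15, adjusted p = 0.00865 against kctd15). The Hsp60 genes hspd1.L and hspd1.S differed by 0.24 and 0.19 against lacZ and by -0.09 and -0.02 against kctd15, with no call. The other probe set of hspd1.S was called, lower against kctd15 (-0.63 ± 0.18, adjusted p = 0.0170, limma) and higher for kctd15 against lacZ (0.72 ± 0.18, adjusted p = 0.0413). Their co-chaperonin gene hspe1.L, for Hsp10, differed by -0.37 ± 0.26, adjusted p = 0.299 against kctd15 and by 0.45 ± 0.26, adjusted p = 0.409 for kctd15 against lacZ, both called only with the block (0.00538 and 0.00980).

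Genes listed as induced by heat or proteotoxic stress were not called on the probe sets used. Of 10 such genes on the array, 0 were called in any of the 4 comparisons between groups by limma (backgrounds of 44.5%, 45.3%, 7.45% and 0.752% for wnt3a+chordin against lacZ, wnt3a+chordin+kctd15 against kctd15, kctd15 against lacZ and wnt3a+chordin+kctd15 against wnt3a+chordin), with 0, 0 and 1 having an unadjusted p under 0.05 in wnt3a+chordin against lacZ, in wnt3a+chordin+kctd15 against kctd15 and in kctd15 against lacZ. Of all 11303 symbols, 5806, 5895 and 2259 had an unadjusted p under 0.05 by limma in those comparisons. With the block hspe1.L was called, as given above. Other probe sets of 2 of the genes were called: that of hspd1.S, given above, and that of dnaja1.L, which was higher in both comparisons for wnt3a and chordin (0.93 ± 0.34, adjusted p = 0.0485 against lacZ and 1.02 ± 0.34, adjusted p = 0.0316 against kctd15, limma). The inducible gene hsp70.L varied most: it measured 7.27, 8.88 and 8.89 in the wnt3a+chordin+kctd15 arrays, 6.68, 8.85 and 9.12 in the wnt3a+chordin arrays, 9.86, 8.92 and 9.18 in the kctd15 arrays and 8.65, 8.81 and 9.36 in the lacZ arrays. Replicate 1 of both groups with wnt3a and chordin was low and kctd15 replicate 1 was high, and the differences of -0.72 and -0.97 did not pass (adjusted p = 0.404 and 0.256). The probe set of hspa1a.S stayed between 2.94 and 3.26 in all arrays, and 15 of the 83 genes had a mean signal no higher than the median over the tested probe sets. Array means over 5 small heat shock genes, hspb1.L and hspb1.S among them, were 4.03 to 4.59. The listed gene hspa1l.S was near the top of the signal range, as given above. A change in genes so near either end of the range could be missed. For bag3.L, a partner of Hsp70 in stressed cells, kctd15 replicate 1 was at 6.40, and kctd15 against lacZ differed by 0.65 ± 0.27, adjusted p = 0.203.

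The small heat shock gene hspb7.L, known from heart and skeletal muscle in mammals, was the other heat shock gene that fell against lacZ. It measured 7.46, 6.96 and 5.71 in the wnt3a+chordin+kctd15 arrays, 6.28, 6.85 and 5.94 in the wnt3a+chordin arrays, 6.94, 5.77 and 6.46 in the kctd15 arrays and 8.25, 7.94 and 7.65 in the lacZ arrays. All lacZ arrays were above all arrays of the other groups, with differences of -1.59 ± 0.44, adjusted p = 0.0138 for wnt3a+chordin (limma; lost without 2 of the 12 arrays) and -1.56 ± 0.44, adjusted p = 0.0616 for kctd15 (0.0238 with the block), both against lacZ. Wnt3a+chordin+kctd15 and kctd15 overlapped (0.32 ± 0.44, adjusted p = 0.615). Means over the 30 muscle markers were 4.91 to 7.08 in wnt3a+chordin+kctd15 and 4.82 to 6.35 in wnt3a+chordin arrays. They were 4.79 to 5.45 in kctd15 and 4.62 to 6.61 in lacZ arrays. The part of muscle cells in the hspb7.L result was not tested. The BAG genes bag3.L, bag6.L and bag6.S were called in no comparison in either fit. With the block alone, hspbap1.L (-0.27, adjusted p = 0.0164, against 0.211 without it) and tcp11l1.L (0.37, 0.0443, against 0.192) were also called against kctd15.

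For kctd15 against lacZ, 1 of the 83 genes rose and 0 fell, where 3.00% of all symbols were called higher and 4.45% lower. By limma 10 of the 83 genes had an unadjusted p under 0.05, and 2259 of the 11303 symbols did. The share called, 1.20%, was below the 7.45% of all symbols, and the median difference was 0.09 against 0.05. With the block, 8 rose and 4 fell (14.5%, background 16.0%). Those that rose besides dnaja4.1.L were dnaja4.2.S (0.48), dnajb5.S (1.22), dnajb12.S (0.45), dnajc11.S (0.42), hsp90b1.L, hsp90b1.S and hspe1.L, and those that fell were dnajb9.L (-0.93), cct4.L (-0.49), dnajc27.L and hspb7.L. The groups did not overlap for 15 of the 83 genes, with a background of 26.4%. By limma without the block, the other probe sets of hspd1.S (0.72) and dnajc5g.L (0.42) were also called higher for kctd15 against lacZ. All of these directions rest on labels that the kctd15.L probe set does not bear out. The crest marker means given above were lower in each group labelled with kctd15 than in its counterpart without it.

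For wnt3a+chordin+kctd15 against wnt3a+chordin, the comparison that the study's title names, 0 of the 83 genes were called by limma (1 with an unadjusted p under 0.05; 0 with the block). Of all symbols 0.752% were called, and 1.43% with the block. An unadjusted p under 0.05 was found by limma for 784 of the 11303 symbols. The one chaperone gene with an unadjusted p under 0.05 was dnajb9.L, which was lower in the group labelled with kctd15 (9.28, 9.26 and 9.25 in the wnt3a+chordin+kctd15 arrays and 10.15, 10.08 and 10.96 in the wnt3a+chordin arrays). All 3 arrays of that group lay below all 3 of wnt3a+chordin, with a difference of -1.13 ± 0.36, adjusted p = 0.362 (0.0584 with the block). The groups did not overlap for 5 genes, where the background was 9.49%. The 95% interval of the difference lay within 1 log2 unit of 0 for 73 of the 83 genes, and its median half-width was 0.37. For cct2.S the interval was -0.24 to 0.33, for dnajb13.S -0.27 to 0.85 and for tcp1.S -0.45 to 0.39.

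Whether the difference for wnt3a and chordin changed with kctd15 was tested as the interaction, (wnt3a+chordin+kctd15 minus kctd15) minus (wnt3a+chordin minus lacZ). No chaperone gene passed by limma, where 1.34% of all symbols did. An unadjusted p under 0.05 was found by limma for 6 of the 83 genes and for 1325 of the 11303 symbols. With the block 4 genes passed (4.82%, background 3.57%). They were dnajb5.S (-1.70, adjusted p = 0.0350 with the block and 0.315 without), dnajb14.S (-0.63, 0.0427 and 0.408), hspe1.L (-0.56, 0.0441 and 0.686) and cct4.L (0.61, 0.0441 and 0.781). The largest interaction, that of hspb7.L (1.91 ± 0.62, adjusted p = 0.219), did not pass with the block either (0.0892), nor did that of dnajb4.S pass without it (1.07 ± 0.38, adjusted p = 0.272).

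**Figure D5:**
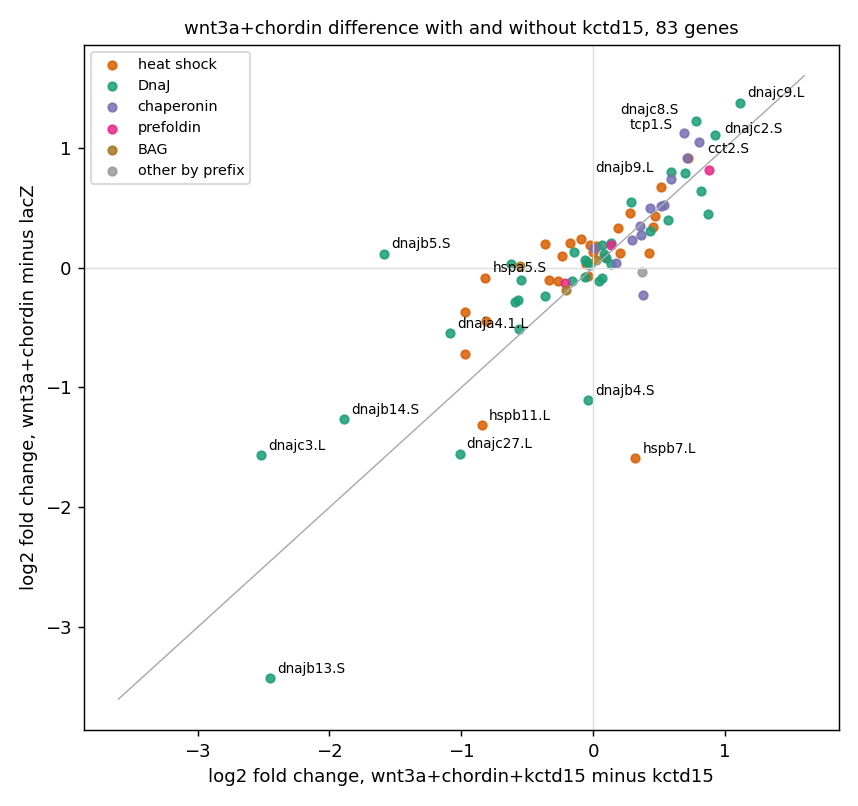
Log2 fold change of each of the 83 genes for wnt3a+chordin+kctd15 minus kctd15 (horizontal) and wnt3a+chordin minus lacZ (vertical), coloured by subgroup, with the line of equality. Most genes lie near the line; dnajb4.S and hspb7.L lie below it, and dnajb5.S lies to the left at -1.59 and 0.12.

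Calls of homeologs depended on the block. Of the 18 pairs, 7 had 1 copy called against lacZ, 0 had both and 11 had neither; against kctd15, 6 had 1, 2 (dnajb11 and dnajc27) had both and 10 had neither. With the block, 7 pairs had 1 copy called against lacZ, 5 (hspa14, hspa9, dnajb6, dnajc8 and cct8) had both and 6 had neither; against kctd15, 6 had 1, 8 had both and 4 had neither. No pair was called in opposite directions in either fit. Homeolog pairs among all symbols were not counted, so these counts do not show whether chaperone pairs differ from others. The median absolute difference between the fold changes of the copies was 0.32 against lacZ and 0.25 against kctd15, and the widest gaps (L minus S) were -1.32 for dnajc27, -1.02 for dnajc8 and -0.89 for tcp1 against lacZ and 0.75 for pfdn6 against kctd15. These gaps were not tested. Transcripts of near-identical copies may hybridise to the same probe set, which was not examined here. Of the 83 probe sets, 10 carry the suffix a, for probes shared by transcripts of 1 gene. The suffixes s and x, for probes shared more widely, are carried by 1 and 3. For the 17 genes with several probe sets, calls differed between probe sets in 2 genes against lacZ and 7 against kctd15, never in both directions. In dnaja1.L, for example, the probe set used differed by 0.08 against lacZ, where the other was called.

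Other genes of protein folding, taken from a list of factors that work with chaperones, were measured for 62 symbols. In wnt3a+chordin against lacZ, 13 rose and 8 fell (23 and 13 with the block), and in wnt3a+chordin+kctd15 against kctd15, 14 rose and 11 fell (19 and 21 with the block). The shares called were 33.9% and 40.3% (58.1% and 64.5% with the block), where 44.5% and 45.3% of all symbols were called (57.4% and 58.7% with the block). Of the genes called by limma against lacZ, those with the largest increase were ddit3.L, the CHOP transcription factor of the ER stress response (1.65 ± 0.22, adjusted p = 0.000169, limma), hsph1.S, an Hsp110 exchange factor (1.15 ± 0.30, adjusted p = 0.0105), and tbce.L, a tubulin folding cofactor (1.12 ± 0.18, adjusted p = 0.000542). Those with the largest decrease were bbs12.L, a chaperonin-like gene of cilia (-2.05 ± 0.22, adjusted p = 3.69e-05), sdf2l1.L of the ER lumen (-0.96 ± 0.22, adjusted p = 0.00485) and the calreticulin gene calr.S (-0.87 ± 0.21, adjusted p = 0.00597). Against kctd15, sdf2l1.L and bbs12.L fell as well (-1.53 and -1.32, adjusted p = 0.000262 and 0.000648), and serpinh1.L, the collagen chaperone Hsp47, rose (1.83 ± 0.42, adjusted p = 0.00496). For kctd15 against lacZ 0 rose and 3 fell by limma, 4.84% of the list where 7.45% of all symbols were called (6 and 3 with the block, 14.5%, background 16.0%). In wnt3a+chordin+kctd15 against wnt3a+chordin, calr.L was the one gene called (1.61%, background 0.752%). It measured 12.35, 12.15 and 12.67 in the wnt3a+chordin+kctd15 arrays, 13.77, 13.23 and 13.77 in the wnt3a+chordin arrays, 12.27, 12.41 and 12.74 in the kctd15 arrays and 13.36, 13.49 and 13.63 in the lacZ arrays, so that both groups labelled with kctd15 lay below the other groups, with differences of -1.20 ± 0.19, adjusted p = 0.0235 against wnt3a+chordin and -1.02 ± 0.19, adjusted p = 0.0102 against lacZ.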

How the data were processed

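Per the labels' protocols, animal caps injected at the 2-cell stage were collected at stage 15, and TRIzol RNA was amplified, biotin-labelled and hybridised to Affymetrix arrays. The values are log2 signals deposited by the authors in a series table. Partek is named in the submitters' processing notes, and its version and the normalization steps were not given in the sources used here, so whether background correction and quantile scaling were applied is unknown; the arrays share nearly one distribution. The 12 columns were matched to samples, and groups and replicate numbers were taken from sample titles.

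Control probe sets (96 Affymetrix and 64 reporter) were left out of the 32635, and the other 32475 were fitted with limma 3.58.1 in R 4.3.3 (lmFit on 4 group means, contrasts.fit, eBayes; two-sided; Benjamini-Hochberg per contrast; call at adjusted p under 0.05). Probe sets were named from the platform's annotation: 15495 had 1 symbol, 279 several and 16701 none, and 15384 of the 15495 matched RefSeq genes. Genes were named by rule: the largest called changes in each comparison, all chaperonin, prefoldin and constitutive Hsp60, Hsp70 and Hsp90 genes, members of compartment and stress lists, and the homeolog pairs that differed most. Members and lists were chosen with earlier results of these data known. The arrays' number limits the precision. Replicate numbers, taken from the titles, were accepted as pairing because same-numbered arrays of different groups deviated together (median correlation 0.50 over 18 pairs). The median of -0.25 over 36 pairs with different numbers is no further evidence, because deviations from a group mean cancel within the group. Alternatives were the replicate block, quantile normalization, median centring, array weights, a trended prior, a filter on dim probe sets, other probe set choices, fits on 2 groups, and arrays left out. The fit without the block was also run on simulated data with independent noise for each array. That simulation held no deviations shared by replicate number, so it says nothing about them or about the fit with the block.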

Additional observations from a re-analysis of the deposited data

Results flagged for a closer look

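In 4 genes the wnt3a and chordin difference with kctd15 differed from that without it in the limma interaction fitted with the replicate block, and in none of them did it without the block. These are 4.82% of the 83 chaperone genes, where 3.57% of all symbols passed that test. The interaction was -1.70 for dnajb5.S, where wnt3a+chordin+kctd15 minus kctd15 was -1.86, -1.27 and -1.64 within replicate numbers and wnt3a+chordin minus lacZ was -0.55, 0.92 and -0.01. For dnajb14.S it was -0.63: the gene was lower in all 3 numbers of both comparisons, with differences of -2.07, -1.68 and -1.93 with kctd15 and -1.39, -1.26 and -1.15 without it. For hspe1.L it was -0.56, with -0.45, -0.23 and -0.42 with kctd15 and 0.11, 0.31 and 0.17 without it. For cct4.L it was 0.61, with 0.45, 0.46 and 0.22 with kctd15 and -0.15, -0.17 and -0.37 without it. For hspe1.L and cct4.L the 3 numbers thus moved one way with kctd15 and the opposite way without it. The differences without kctd15 were called in neither fit (limma adjusted p with the block 0.0817 for hspe1.L and 0.0621 for cct4.L). The interaction was computed from these same differences, so they are no separate evidence for it.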

How the results depend on the processing

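No called gene changed direction under any alternative, and all 51 calls of a gene in a comparison were also made with the replicate block. The block moved the counts of genes higher and lower to 27 and 10 (from 14 and 9 without it) for wnt3a+chordin against lacZ, 27 and 19 (15 and 12) for wnt3a+chordin+kctd15 against kctd15, 8 and 4 (1 and 0) for kctd15 against lacZ and 1 and 3 (0 and 0) for the interaction; it changed no other call. Without replicate 1 of all groups, 5 genes were lower against lacZ, 8 were higher and 7 lower against kctd15, and 0 were higher for kctd15 against lacZ; without replicate 2 of all groups these counts were 9 higher against lacZ, 6 and 7, and 0; without replicate 3 of all groups, 1 was lower for kctd15. Fits on the 2 groups alone gave 7 lower against kctd15 and 2 higher and 1 lower for kctd15 against lacZ. With lacZ replicate 3 and wnt3a+chordin+kctd15 replicate 2 left out, 6 were lower against kctd15. Array weights gave 2 and the filter on dim probe sets 1 lower for kctd15 against lacZ. The causes of these changes were not tested. For the alternatives other than the block, including the counts with arrays left out in turn, the shares of all symbols called were not computed. Whether the changes concern chaperone genes more than other genes is therefore not shown. With each array left out in turn, counts ranged from 11 to 17 higher and 7 to 9 lower against lacZ, 10 to 16 and 8 to 14 against kctd15, and 0 to 2 and 0 to 2 for kctd15 against lacZ; they stayed at 0 for the other 2 tests.

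Calls against lacZ were lost without lacZ replicate 1 (cct4.S, dnajc25.S, hspa4.L, hspb7.L), lacZ replicate 2 (cct4.S, hspbp1.L), lacZ replicate 3 and wnt3a+chordin replicate 1 (dnaja4.1.L, hspbp1.L), wnt3a+chordin replicate 2 (cct4.S, dnajc25.S, hspa4.L, hspbp1.L) or wnt3a+chordin replicate 3 (cct4.S, hspb7.L), with adjusted p of 0.0518 to 0.124 in limma. The other 17 of 23 calls held without any single array. Against kctd15, 15 of 27 calls held; 8, 8 and 6 were lost without kctd15 replicates 1, 2 and 3, and 10, 9 and 4 without wnt3a+chordin+kctd15 replicates 1, 2 and 3, with adjusted p of up to 0.172; dnajb11.S was also lost without lacZ replicate 1, 2 or 3, and cct3.S without lacZ replicate 2 or wnt3a+chordin replicate 1, 2 or 3. With a replicate number left out of all groups, 28 of the 51 calls were lost for at least 1 number. For kctd15 against lacZ, dnaja4.1.L was lost without lacZ replicate 2. Interaction fits on 2 groups were not run.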
